A study of Mus musculus with 4 samples.

Results

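The replication-dependent histone genes are the small, clustered genes that supply the bulk of the H1, H2A, H2B, H3 and H4 proteins on which DNA is wound. They were taken as the protein-coding genes with names beginning Hist1h to Hist4h, which gave 53 of the 26433 genes in the count table. Of these, 5 encode linker histone H1, and 11, 16, 10 and 11 encode the core histones H2A, H2B, H3 and H4. The Hist1 cluster on chromosome 13 holds 46 of them, the Hist2 cluster on chromosome 3 holds 4, the Hist3 cluster on chromosome 11 holds 2, and Hist4h4 stands alone. Another 14 protein-coding genes with such names in the GENCODE M21 annotation were absent from the count table, so every sum over members leaves them out.

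Bulk RNA sequencing compared the cortex of embryonic day 15 (E15) cKI f/+ mice with that of WT littermates to ask which genes change when human SERPINA3 is present. The cKI f/+ mice carry a CAG-driven, flag-tagged human SERPINA3 behind a floxed stop cassette in a single Rosa26 allele. Nestin-Cre was used to induce it in Nestin-positive cells and their descendants. Whether other cells express the transgene is not given in the sources used here. The labels give the strain of both groups as C57BL/6, while the study's methods say that the knock-in founders were crossed to B6D2F2 mice before the Nestin-Cre cross, so the background may be mixed. The labels name the tissue as cerebral cortex and the methods as telencephalic tissue. There were 2 cKI f/+ libraries (KI2 and KI3) and 2 WT libraries (WT1 and WT3), and whether the WT embryos carried Cre is not given in the sources used here. Cells of a bulk sample are pooled, so fewer cells of a type and less RNA per cell cannot be told apart.

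In most animal cells these genes are switched on when DNA is copied, and their mRNAs end in a short conserved stem-loop instead of a poly(A) tail. The stem-loop is bound by Slbp, which guides cleavage of the transcript just after it, and the mRNAs are broken down when DNA synthesis ends. Some of the genes can also give a longer, polyadenylated transcript, mainly in cells that have left the cell cycle, while histone variants such as H2A.Z and H3.3 come from separate genes with ordinary polyadenylated mRNAs. In the E15 cortex, dividing progenitors lie beside newborn neurons that no longer divide.

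The stem-loop is shown because its arms differed between H4 and the other histone types and because the annotated ends of the transcripts differed around it. A histone stem-loop was found after the stop codon in 38 of the 53 genes. It was found in 0.114% of 20983 other protein-coding genes with annotated sequence after their stop codon. Only the 53 members were left out of that set, so it can hold the 14 further histone genes of the annotation. In the members, the stem-loop began 21 to 54 bases after the stop (median 31). Capitals mark both arms of the stem, and the lower case letters are the loop. The arms pair at 6 of 6 positions in each of the 38 genes. The motif searched for fixes or limits the bases of both arms, so this pairing follows largely from the search.
Hist3h2ba, Hist3h2a, Hist1h1c, Hist1h2bj and 17 others: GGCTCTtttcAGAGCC
Hist1h3c, Hist1h2bk, Hist1h2bb, Hist1h3e and Hist1h3f: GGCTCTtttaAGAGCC
Hist1h4c, Hist1h4d, Hist1h4f, Hist1h4h, Hist1h4n and Hist4h4: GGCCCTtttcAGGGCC
Hist1h4i and Hist2h4: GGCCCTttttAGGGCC
Hist1h4j: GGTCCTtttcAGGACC
The list is not complete, since Hist1h4a, Hist1h3g and Hist2h2ac each had a form of their own that is not shown. The stem separated H4 from the other types. All 28 genes of the H1, H2A, H2B and H3 types with a stem-loop had the arms shown for Hist3h2ba, and none of the 10 H4 genes with a stem-loop did. Hist2h2be and Hist1h2bc, which are among the most abundant members, had no match, and 10 members have fewer than 5 bases annotated after the stop codon, so that no match was possible in them.

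The libraries held 17423512 to 18119444 reads, and the floor of 3 counts corresponded to 0.166 to 0.172 CPM (counts scaled to a common library size), a limit from counting alone. Replicate libraries differed by more than counting noise, with a chi-square per degree of freedom of 4.36 for KI2 against KI3 and 5.67 for WT1 against WT3. Markers of cortical tissue were expressed, such as Tbr1 of deep-layer neurons at 441.6 to 556.9 CPM and Eomes of intermediate progenitors at 317.8 to 349.8 CPM. The genes of embryo sex separated the groups in the same way as the genotype, with Xist at 13223 and 11882 reads in cKI f/+ against 5 and 5 in WT libraries, so sex and genotype cannot be told apart in any value given here. edgeR's quasi-likelihood test was run on 15786 genes with enough reads, and 0.12% of them were called at a Benjamini-Hochberg adjusted p under 0.05.

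Together the 53 histone genes took few reads, and an H2B gene took most of them. They held 3937 reads (223.4 CPM) in KI2 and 4586 reads (253 CPM) in KI3, against 3296 reads (186.9 CPM) in WT1 and 3972 reads (227.9 CPM) in WT3. The mean was 238.2 ± 20.92 CPM (SD, n = 2) in cKI f/+ and 207.4 ± 29.06 CPM (SD, n = 2) in WT mice, a ratio of 1.149. WT3 lay above KI2, so the groups overlapped. H2B genes held 78.3% of the reads, H2A genes 8.62%, H4 genes 5.18%, H1 genes 4.73% and H3 genes 3.15%. The core histones enter the nucleosome in equal numbers as proteins, and their mRNA reads did not have that proportion in these libraries. Of the 53 genes, 45 had fewer than 100 reads in all 4 libraries together, and 12 were at or under 3 reads in every library.

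**Figure D1:**
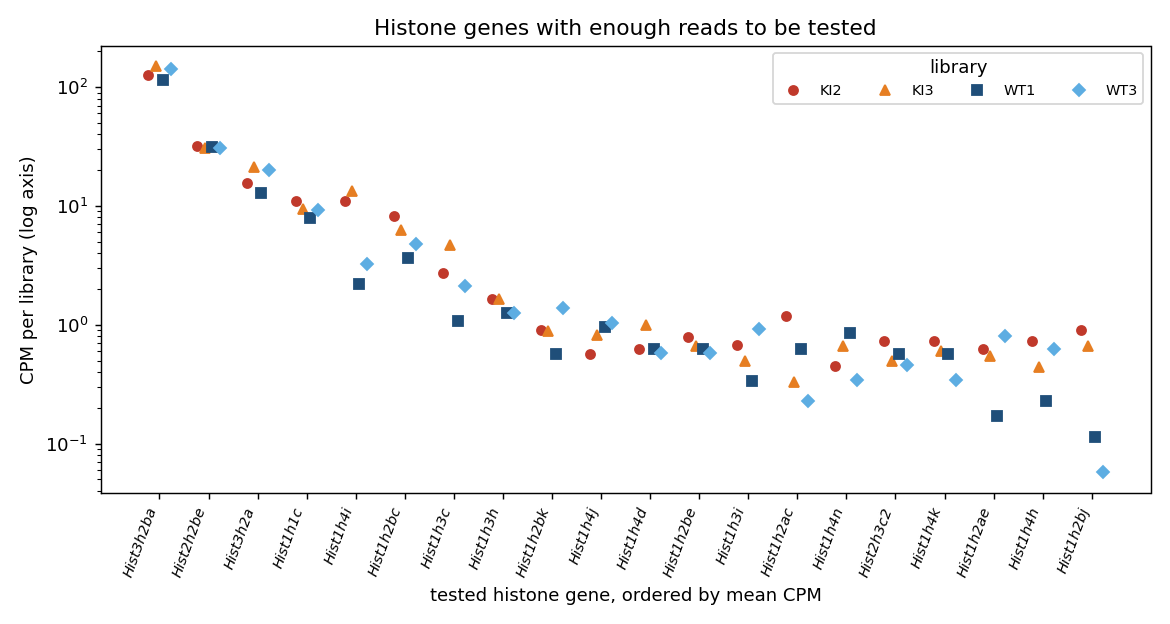
Level of each of the 20 tested histone genes in the 4 libraries, in CPM on a log axis, ordered by mean CPM. Hist3h2ba lies between 115.8 and 149.8 CPM, far above all others, while both cKI f/+ libraries lie above both WT libraries for Hist1h4i (11.07 and 13.3 against 2.211 and 3.271 CPM).

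Levels of different genes were compared per kilobase of the longest annotated transcript (CPM per kb). Hist3h2ba, an H2B gene of the Hist3 cluster (chr11:58948920-58949533, plus strand, GRCm38), was at 217.8 CPM per kb. It had 2222 and 2715 reads in KI2 and KI3 against 2043 and 2495 reads in WT1 and WT3, together 60% of all reads on members. Hist2h2be, an H2B gene of the Hist2 cluster, came next at 11.89 CPM per kb with 559, 559, 553 and 534 reads in the same order of libraries. Those reads differed little among the 4 libraries, and the log2 fold change between cKI f/+ and WT mice was 0.01 (SE 0.10, edgeR quasi-likelihood adjusted p = 0.995). For Hist3h2ba the log2 fold change was 0.09 (SE 0.12, edgeR adjusted p = 0.993), and KI3 and WT3 both lay above KI2 and WT1.

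After these came Hist1h4i (10.26 CPM per kb), Hist3h2a (8.086), Hist1h1c (6.038), Hist1h2bc (4.955), Hist1h3c (4.212) and Hist1h3h (3.535). No member below them exceeded 1.962 CPM per kb, the level of Hist1h2bk. The ranges of the libraries overlapped between several neighbours in this order, and lengths of annotated transcripts enter each level. With all exons of a gene merged, 10 of the 10 highest members were the same.

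The set of genes for replication-independent histones was far more abundant. Summed per kilobase, the 11 genes were at 2169 CPM per kb and the 53 replication-dependent genes at 287.9, which is 13.27% of the former. H2afz, which encodes H2A.Z, was at 629.9 CPM per kb, H3f3b, an H3.3 gene, at 488.7, and H1f0, a linker histone known from cells that have stopped dividing, at 372.9. Each of these 3 genes alone exceeded the sum over the 53 replication-dependent genes. Of 14 listed RNAs known to lack a poly(A) tail, 3 were also in the table, and all had few reads. Rn7sk, a regulator of transcription elongation, had 19, 18, 19 and 17 reads in KI2, KI3, WT1 and WT3, Terc, the telomerase RNA, had 14, 6, 20 and 14, and Rpph1, the RNA of ribonuclease P, had 4, 8, 9 and 8. Whether poly(A) RNA was selected is not given in the sources used here, and its part in the levels was not tested.

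The reads lay mainly on genes whose annotated transcript ends with a poly(A) signal. A signal, AATAAA or ATTAAA on the sense strand, was searched in the last 50 bases of the sequence after the stop codon. It was found in 15 of the 53 genes and in 80.3% of the 20983 other protein-coding genes with annotated sequence there. Of the 38 members without a match, 10 have fewer than 5 bases annotated after the stop codon, so no signal could be found in them. The 15 genes with a signal held 90.9% of the reads on members, and the 38 others held 9.11%. Without Hist3h2ba, the remaining 14 genes held 4877 reads, still above the 1439 reads of the 38 genes without a signal. Most of the 4877 reads were on a few genes, with 2205 on Hist2h2be, 1230 on Hist3h2a, 667 on Hist1h1c and 532 on Hist1h4i. Hist1h4j came next among the 14 with 60, so the excess was not shared by most genes with a signal. The median level was 0.763 CPM per kb for genes with a signal and 0.286 for genes without one. The groups overlapped widely, since Hist1h2br, which has a signal, was the lowest member at 0.0321 CPM per kb, and Hist1h2bc, which has none, was at 4.955. Hist1h2br was chosen for mention after its value was seen.

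**Figure D2:**
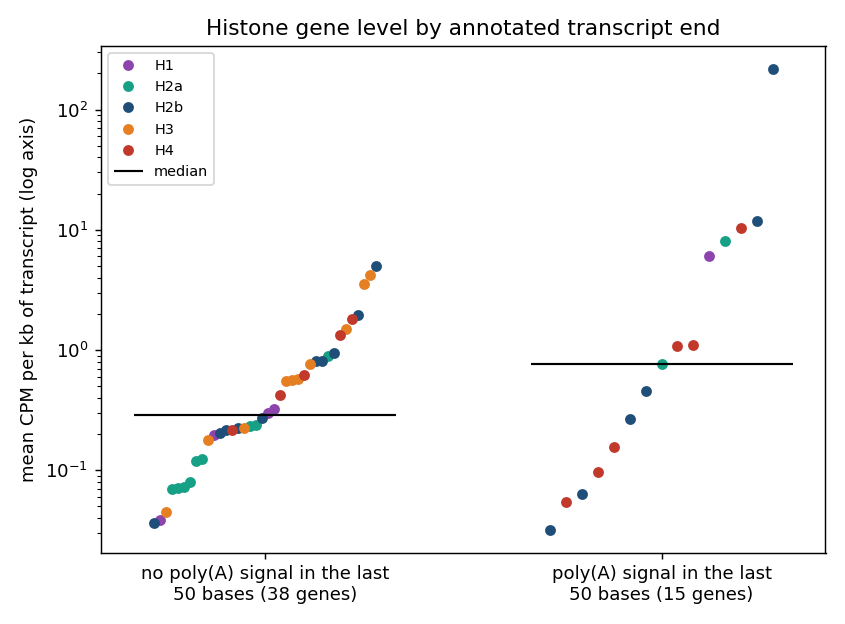
Mean level of the 53 histone genes over the 4 libraries, in CPM per kb on a log axis, split by whether a poly(A) signal lies in the last 50 bases of the annotated transcript. Points are genes coloured by histone type and the line is the median, 0.763 for the 15 genes with a signal and 0.286 for the 38 without, with wide overlap. Of the 38, 10 have fewer than 5 bases annotated after the stop codon, so no signal could be found in them.

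Where a stem-loop was present, the annotated transcript ran on for 11 to 4884 bases past it. The 21 genes whose transcript ran more than 100 bases past the stem-loop held 12387 reads, of which 9475 were on Hist3h2ba. The 17 genes whose transcript ended within 100 bases held 506. The median level had the opposite order, at 0.2725 CPM per kb for the 21 genes and 0.4545 for the 17. Hist3h2ba, Hist1h4i, Hist1h1c and Hist3h2a ran 169, 330, 840 and 1643 bases past it, and each had a poly(A) signal at the end. Hist1h3c ran 74 bases past it and had no signal.

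Members resemble each other in sequence, so that reads can fit several of them. The share of a transcript's 31-base words also present in another gene ranged from 0.281% to 98.3% (median 55.2%). The 30 genes with more than 50% of words shared held 5.18% of the reads. Over the 53 genes this share had a Spearman correlation of -0.08 with the level per kilobase, given as a description, since the genes share libraries and lengths. Exons of 13 members overlapped those of another annotated gene, among them Hist3h2a with Trim17 on the same strand and Hist1h1e with Hist1h2be on the same strand. How reads that fit several genes were counted, and whether strand was used, is not given in the sources used here, so values of such genes are uncertain.

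The comparison of cKI f/+ with WT mice turned on Hist1h4i, a gene for histone H4 (ENSMUSG00000060639, chr13:22040636-22041362, minus strand, GRCm38). It had 195 reads in KI2 and 241 in KI3 against 39 in WT1 and 57 in WT3. Both cKI f/+ libraries lay well above both WT libraries, at 12.18 ± 1.577 CPM (SD, n = 2) against 2.741 ± 0.7497 CPM (SD, n = 2). The log2 fold change was 2.15 (SE 0.23, edgeR quasi-likelihood adjusted p = 0.00515). The ratio of the pooled reads, scaled to library size, was 4.438, with an exact 95% interval of 3.551 to 5.595 for counting error only. Hist1h4i was the 1 member called of the 20 tested, beside 0.0697% of all genes called higher in cKI f/+ mice. The gene shared 35.3% of its 31-base words with other genes, and its exons overlapped no other gene.

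Markers of some tissues beside the cortex also differed between the libraries. The 4 meninges markers, which include the collagen gene Col1a1, summed to 13.45 and 10.65 CPM in KI2 and KI3 against 2.891 and 5.452 CPM in WT1 and WT3, with Lum at 0 in WT1. The 3 choroid plexus markers summed to 7.208 and 53.85 CPM against 0.1701 and 1.205 CPM, with Ttr and Kl at 0 in WT1 and Kl at 0 in KI3. The choroid plexus sum was carried by Ttr, with 956 reads in KI3 and 116 in KI2, while Folr1 overlapped between the groups at 9 and 20 against 3 and 16 reads. The 5 blood markers summed to 283.4 to 432.9 CPM in cKI f/+ and 405.3 to 454.7 CPM in WT libraries. The 5 markers of ventral telencephalon summed to 155.8 and 177.9 CPM against 170.9 and 222.8 CPM, with Nkx2-1 at 19 and 17 against 6 and 3 reads and Dlx2 at 437 and 609 against 679 and 862 reads. The 2 endothelial markers summed to 37.34 and 40.33 against 39.46 and 38.57 CPM, and the 2 microglial markers to 11.29 and 11.92 against 12.93 and 12.45 CPM. The part of these tissues in the value of Hist1h4i was not tested.

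The window around the start of Hist1h4i is shown because no other H4 gene was called. It spans 250 bases before to 50 after the start that RefSeq gives (there named H4c9, chr13:22041313-22041612, minus strand, GRCm38.p6), and capitals mark the match to TATAAA, which begins 137 bases before the start.
Hist1h4i: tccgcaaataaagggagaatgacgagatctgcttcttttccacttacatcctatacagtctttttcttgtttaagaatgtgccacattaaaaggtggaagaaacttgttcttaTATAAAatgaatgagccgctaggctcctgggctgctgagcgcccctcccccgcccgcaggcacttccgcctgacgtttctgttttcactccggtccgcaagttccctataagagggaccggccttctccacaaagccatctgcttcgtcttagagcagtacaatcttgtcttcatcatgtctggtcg
The window of Hist3h2ba, the most abundant member, is given beside it (H2bu2, chr11:58948661-58948960, plus strand), with matches to CCAAT and TATAAA on either strand in capitals.
Hist3h2ba: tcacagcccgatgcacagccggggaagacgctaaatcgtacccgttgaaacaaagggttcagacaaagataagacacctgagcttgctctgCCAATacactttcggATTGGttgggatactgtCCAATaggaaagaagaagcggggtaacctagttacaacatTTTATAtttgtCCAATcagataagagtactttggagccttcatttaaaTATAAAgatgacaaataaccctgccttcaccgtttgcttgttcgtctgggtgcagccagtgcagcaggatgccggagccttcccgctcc
Of the 53 members, 48 had such a window in the RefSeq table. A gene was counted as a match if any of its windows matched on either strand. CCAAT was found for 85.4% of the 48 members and for 41.1% of all 27025 genes with a window. TATAAA was found for 60.4% against 15.7%. CCAAT was found for every H1, H2A, H2B and H3 gene with a window and for 3 of 10 H4 genes. The octamer ATTTGCAT, a site of Oct1 known from H2B promoters, was found for 5 of 14 H2B and 6 of 11 H2A genes. It was found for none of the other members and for 1.97% of all genes with a window. Windows of neighbouring H2A and H2B genes overlap, so their matches are partly the same letters. A match is a string of letters and not a shown binding site.

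Reads on the histone genes beside Hist1h4i were fewer and did not all differ in its direction. Hist1h2bj is an H2B gene on the other strand (chr13:22043214-22043676), and its lower coordinate lies 2.578 kb from that of Hist1h4i. It had 16 reads in KI2 and 12 in KI3 against 2 in WT1 and 1 in WT3. The groups did not overlap, as was the case for 34.1% of all genes tested, 17.3% in this direction and 16.9% in the other. The pooled, scaled ratio was 9.121 with an exact 95% interval of 2.817 to 46.88 for counting error only, and the log2 fold change was 3.09 (SE 0.70, edgeR quasi-likelihood adjusted p = 0.498). Hist1h2bj therefore did not pass, although its unadjusted edgeR p was 0.00152, and it had entered the test through the cKI f/+ libraries alone. It shared 67.2% of its words with other genes.

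Hist1h2bk, the nearest tested H2B gene on the other side, had 16 and 16 reads in cKI f/+ against 10 and 24 in WT libraries, so the WT values enclosed those of cKI f/+. The untested genes of the same stretch were Hist1h2ag, with 2 and 4 against 0 and 2 reads, and Hist1h2ah, with 1 and 0 against 0 and 1. Hist1h2ag and Hist1h2ah were chosen for mention after their values were seen, for their position. Zfp184, the nearest gene outside the histones with a test on that side, had a log2 fold change of -0.03 and Zfp322a on the other side one of -0.11. Their lower coordinates lie at -95.54 and 1312 kb from that of Hist1h4i, so Zfp322a is not a close neighbour.

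**Figure D3:**
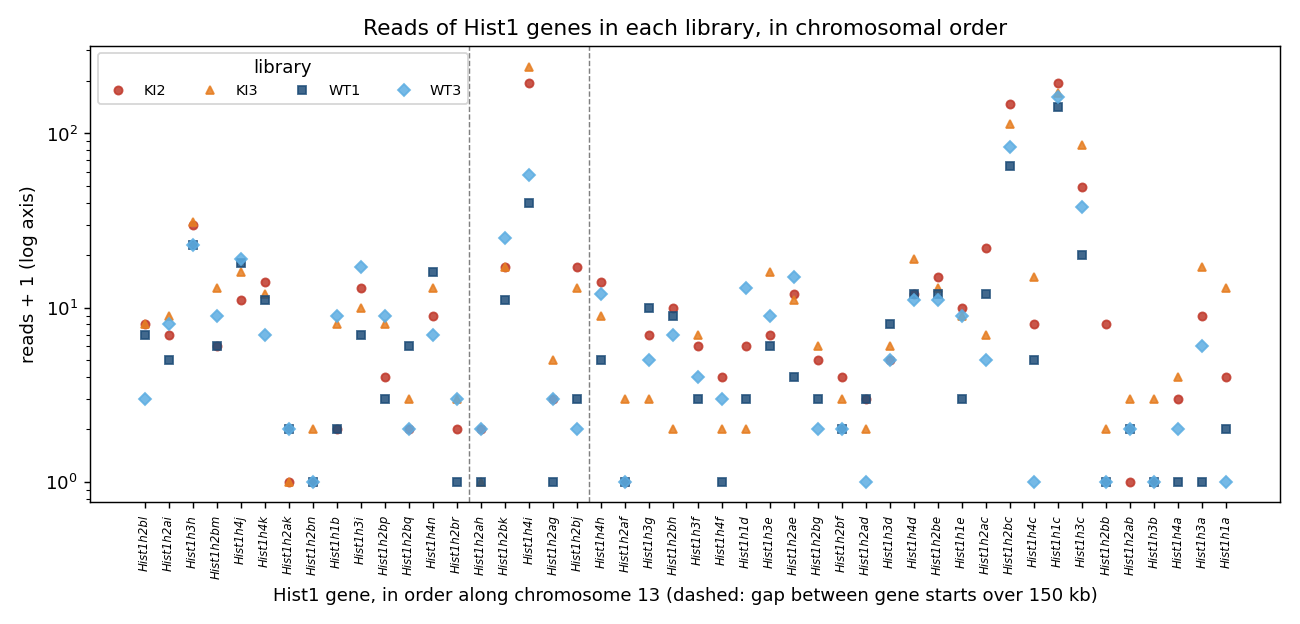
Reads plus 1 on each of the 46 Hist1 genes, on a log axis, in order along chromosome 13, with symbols for the 4 libraries and dashed lines at the gaps of over 150 kb between gene starts. The cKI f/+ libraries stand apart from WT at Hist1h4i (195 and 241 against 39 and 57 reads) and at its neighbour Hist1h2bj (16 and 12 against 2 and 1), but not at Hist1h2bk on the other side (16 and 16 against 10 and 24).

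Among the 10 other H4 genes the reads were few, and the mean CPM was higher in cKI f/+ mice for 6 and lower for 4. Hist1h4j had 10 and 15 reads in cKI f/+ against 17 and 18 in WT libraries, a log2 fold change of -0.51 (SE 0.43, edgeR adjusted p = 0.974), with both cKI f/+ libraries lower. Hist1h4n had 8 and 12 against 15 and 6 reads, with WT values on both sides of those of cKI f/+. Hist1h4k, Hist1h4h and Hist1h4d, named after their values were seen, had log2 fold changes of 0.55 (SE 0.51), 0.45 (SE 0.62) and 0.43 (SE 0.47), and the lowest edgeR adjusted p among them was 0.979. Hist1h4c, also named after its values were seen, had 7 and 14 against 4 and 0 reads and was not tested. Summed over the 10 H4 genes other than Hist1h4i, the reads were 69 and 84 in cKI f/+ against 69 and 64 in WT libraries, a ratio of 1.127. With Hist1h4i the ratio for the type was 2.519. Hist2h4, which has the same stem-loop sequence as Hist1h4i, had 0 and 1 against 5 and 5 reads and could not be tested, and it was chosen after its values were seen. H4 genes encode the same protein, so the count on each gene does not add up to separate proteins.

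Among H3 genes, Hist1h3c had the most reads (chr13:23744973-23745602, minus strand). It had 48 and 85 reads in cKI f/+ against 19 and 37 in WT libraries. The lowest cKI f/+ library lay above the highest WT library, with a log2 fold change of 1.21 (SE 0.38, edgeR unadjusted p = 0.0112, adjusted p = 0.969). Hist1h3h had 29 and 30 against 22 and 22 reads, a log2 fold change of 0.39 (SE 0.33, edgeR adjusted p = 0.975). Hist1h3i had 12 and 9 against 6 and 16 reads, with overlap. Reads summed over the 10 H3 genes were 131 and 179 in cKI f/+ against 80 and 107 in WT libraries, a ratio of 1.621. Part of that ratio is due to Hist1h3c, which held 48 and 85 against 19 and 37 of these reads.

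Among H2B genes beyond those already given, Hist1h2bc (chr13:23684199-23692908, plus strand) had 146 and 113 reads in cKI f/+ against 64 and 83 in WT libraries. The groups did not overlap, and the log2 fold change was 0.79 (SE 0.23, edgeR unadjusted p = 0.00714, adjusted p = 0.881). The sum over the 16 H2B genes had a ratio of 1.078 between the groups, set largely by Hist3h2ba. Hist1h2bb had 7 and 1 reads in cKI f/+ and 0 in both WT libraries, was not tested, and was chosen after its values were seen.

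Among H2A genes, Hist3h2a (chr11:58954685-58956830, plus strand) had 273 and 382 reads in cKI f/+ against 227 and 348 in WT libraries, a log2 fold change of 0.16 (SE 0.21, edgeR adjusted p = 0.993). As for Hist3h2ba, which lies 5152 bases away, KI3 and WT3 were the high libraries, and the groups overlapped. Hist1h2ac had 21 and 6 against 11 and 4 reads, so that its cKI f/+ libraries differed more from each other than their mean did from WT. The log2 fold change was 0.82 (SE 0.71, edgeR adjusted p = 0.976).

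Among linker histone genes, Hist1h1c (chr13:23738808-23740367, plus strand), which encodes H1.2, held 667 of the 747 reads. It had 194 and 170 reads in cKI f/+ against 141 and 162 in WT libraries. The groups did not overlap, and the log2 fold change was 0.24 (SE 0.17, edgeR adjusted p = 0.969). Hist1h1e, the gene of H1.4, had 9 and 8 against 2 and 8 reads and was not tested.

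H2A and H2B genes also lie in head-to-head pairs whose starts are close together. There were 8 such pairs of members, each of an H2A and an H2B gene 176 to 302 bases apart. The H2B gene had the higher level per kilobase in 5 pairs and the H2A gene in 3. The gap was wide for Hist2h2be and Hist2h2ac, at 2205 and 3 reads in all libraries, and for Hist1h2bc and Hist1h2ac, at 406 and 42 reads. Hist2h2ac was chosen for mention after its value was seen.

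Over all 53 genes, the mean CPM was higher in cKI f/+ mice for 37 and lower for 16, beside 49.7% higher over the whole table. Both cKI f/+ libraries lay above both WT libraries for 19 members and below for 4, beside 14.3% and 15.1% of the whole table. These members share libraries, a chromosome and in part reads, so they are not independent observations. Of the 20 tested genes, 16 had a log2 fold change above 0, beside 51.2% of all genes tested, and 4 had one below 0. The median log2 fold change of the 20 was 0.28, against 0.00 for all 15786 genes. An unadjusted p under 0.05 in edgeR's test was found for 4 members in the direction of cKI f/+, Hist1h4i, Hist1h2bj, Hist1h2bc and Hist1h3c, beside 2.26% of all genes, and for 0 in the other direction, beside 2.34%. Hist1h2bj had entered the test through the cKI f/+ libraries alone, so its place in these counts follows in part from the filter and nothing is drawn from them. The 33 genes without a test held 113 and 153 reads in cKI f/+ against 78 and 106 in WT libraries, and KI2 and WT3 were nearly level.

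**Figure D4:**
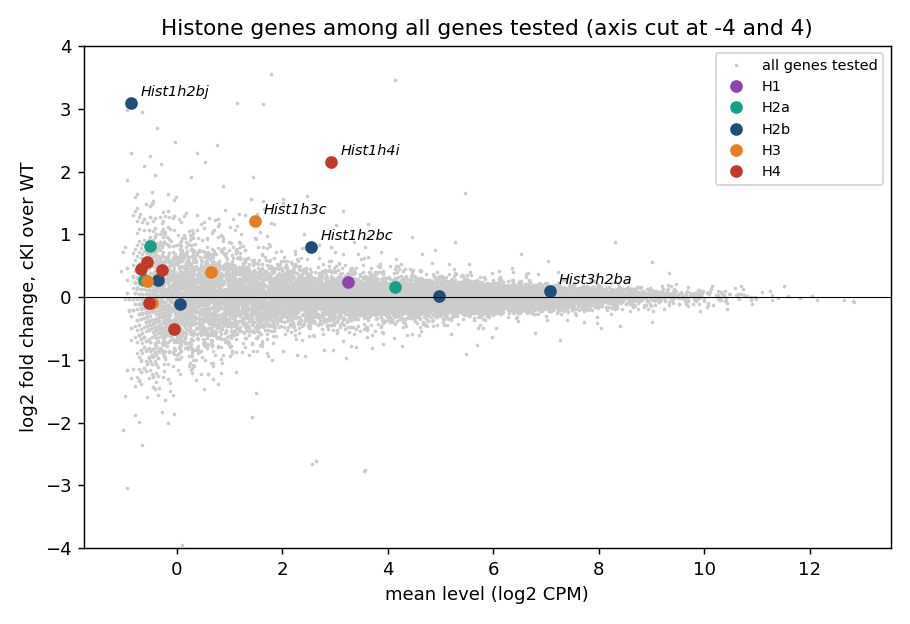
Log2 fold change of cKI f/+ over WT against mean level in log2 CPM for all 15786 genes tested (grey) and the 20 tested histone genes (coloured by type). Hist1h4i stands at 2.15, Hist1h2bj at 3.09 with far fewer reads, and Hist3h2ba, the most abundant, at 0.09.

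By cluster, the reads of the 46 Hist1 genes were 867 and 917 in cKI f/+ against 455 and 577 in WT libraries, a ratio of 1.694. Hist1h4i, the called member, held 195 and 241 against 39 and 57 of these reads, so part of that ratio is due to it. The 4 Hist2 genes had 573 and 571 against 568 and 547 reads, a ratio of 1.007, and the 2 Hist3 genes 2495 and 3097 against 2270 and 2843, a ratio of 1.071. Scaled to library size, the groups stood apart in the Hist1 sum and overlapped in the Hist2 sum and the Hist3 sum. Genes in which no poly(A) signal was found at the end had 437 and 458 reads in cKI f/+ against 243 and 301 in WT libraries, a ratio of 1.613. Of these reads, Hist1h2bc held 146 and 113 against 64 and 83, and Hist1h3c 48 and 85 against 19 and 37. Genes with a signal, Hist1h4i among them, had a ratio of 1.111, set largely by Hist3h2ba, and of 1.206 without Hist3h2ba. These sums were not tested, and 2 libraries against 2 cannot give a two-sided exact permutation p below 0.33.

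Genes that make, process or carry histones were set beside the members, and none of them was called in either direction. Of 11 replication-independent histone genes all were tested, with a median log2 fold change of 0.09 and a range of -0.03 to 0.14. H2afz had 665.5 and 722.2 CPM in cKI f/+ against 645.2 and 660.7 CPM in WT libraries, a log2 fold change of 0.09 (SE 0.07, edgeR adjusted p = 0.975). Of 15 genes for histone transcription and mRNA processing all were tested, with a median of -0.04. Npat, the coactivator of histone genes at the start of S phase, had a log2 fold change of -0.25 (SE 0.13, edgeR adjusted p = 0.969), and Slbp, which binds the stem-loop, one of -0.13 (SE 0.10, edgeR adjusted p = 0.969). Npat and Slbp were chosen for their role, outside the rule for named genes. Srrt, a partner of the nuclear cap-binding complex, and Upf1, the helicase needed for histone mRNA decay, stood at 0.01 and 0.08.

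The 13 histone chaperone and transport genes had a median log2 fold change of -0.02, with Nap1l1, a chaperone of H2A and H2B, at -0.06 and Nasp, a chaperone of H1 and H3, at -0.03. The 17 S phase genes had a median of 0.02, with the helicase subunit gene Mcm7 at 0.03 and Pcna, the sliding clamp of DNA synthesis, at 0.02. The 8 genes of G2 and mitosis had a median of 0.00, with Top2a at -0.06 and Mki67 at -0.04. The list of histone transcription and mRNA processing had the widest range of these, from -0.25 to 0.35, with Zfp473, which interacts with the U7 particle of histone mRNA processing, at the upper end (SE 0.33). Zfp473 was named after its value was seen. The tested histone members ranged from -0.51 to 3.09, where the upper end is Hist1h2bj, tested through the cKI f/+ libraries alone, and the next is Hist1h4i at 2.15. Most of them had far fewer reads than the genes of these lists.

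**Figure D5:**
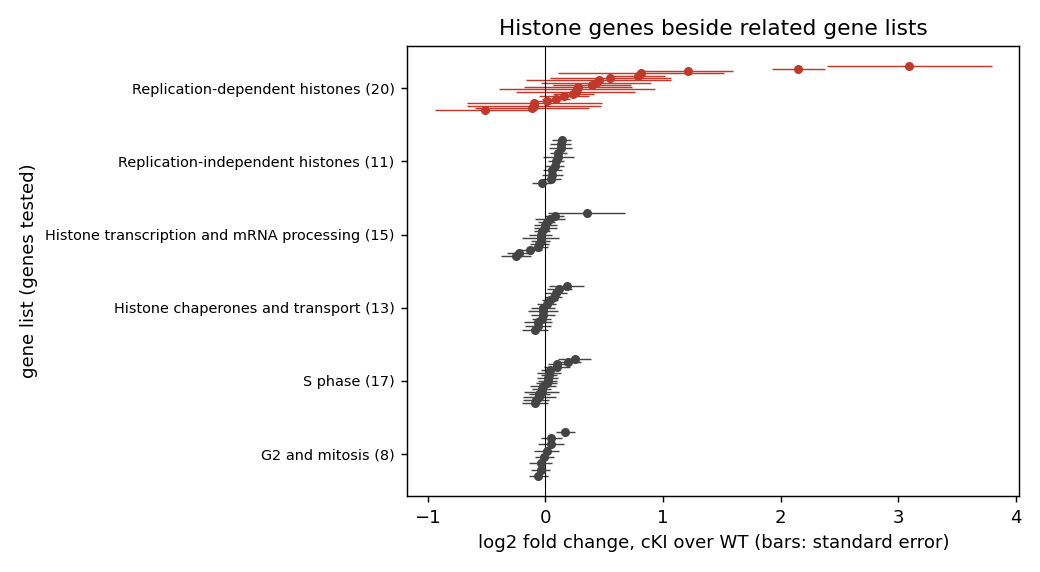
Log2 fold change of cKI f/+ over WT with its standard error (bars) for the 20 tested replication-dependent histone genes (red) and 5 related lists (grey), 1 point per gene. The histone genes range from -0.51 to 3.09, with Hist1h2bj, tested through cKI f/+ alone, at the upper end, while the 11 replication-independent histone genes range from -0.03 to 0.14.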

How the data were processed

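For 4 libraries of E15 RNA, from cortex per the labels and telencephalic tissue per the methods (TRIzol extraction, Illumina HiSeq), the authors deposited whole-number read counts of each gene, not normalized. The submitters' processing notes name Bowtie2 2.2.3, TopHat2 2.0.12 and HTSeq 0.6.0. They also name mm9, although all 53 members have their GRCm38 positions of GENCODE M21. The genotype of each library is given in its column name, but the labelled sample is not clear for KI3 and WT1, and the labels describe triplicates. The authors' own comparison (a signal column of mean normalized counts, a fold ratio, a log2 value and p-values) was deposited too and was not used.

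Counts were tested with edgeR 4.0.16 (R 4.3.3), with its default expression filter, TMM normalization, the quasi-likelihood test and Benjamini-Hochberg adjustment over all genes tested. CPM is the count over the TMM-scaled library size. SE is the log2 fold change over the root of the F statistic. The script was tested on simulated data. Nothing in the labels says that libraries came from separate litters, so p-values measure only the spread between them. Named members were those called, the most abundant pair of each type and those with the 5 largest changes each way (4 were below 0). Members and lists were chosen with earlier results of these data known. Words, exons and stem-loops come from GENCODE M21 and start windows from RefSeq (GRCm38.p6). Alternatives were the likelihood ratio test of edgeR, DESeq2 1.42.0, further normalizations and filters, autosomes alone, and fits that lacked 1 library.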

Additional observations from a re-analysis of the deposited data

How the results depend on the processing

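No paired analysis was possible because the labelled replicate numbers of the groups share none, and the column names share a single number, that of KI3 and WT3, which gives fewer than 2 pairs. Hist1h4i remained called in every alternative run, with a log2 fold change of 2.14 to 2.15 and adjusted p of 6.72e-14 to 0.0155 across other tests, normalizations, filters and without chromosomes X and Y, and of 1.90 to 2.46 with a library left out. The number of members called was 2 with edgeR's likelihood ratio test, which added Hist1h2bj (adjusted p = 0.00906, range over its alternatives 0.00906 to 0.999), and 1 in each other alternative and with each library left out. The median log2 fold change of tested members ranged from 0.26 to 0.43 over the other alternatives and from 0.20 to 0.65 with a library left out, the highest without WT3 (0.65). The summed CPM had a log2 ratio of 0.20, from 0.14 without Hist1h4i, an alternative chosen after seeing the data, to 0.36 without Hist3h2ba, and from 0.06 to 0.35 with a library left out. With a library left out, the sign changed for members far from the threshold. These ranged from -0.018 to 0.031 for Hist2h2be, -0.053 to 0.25 for Hist3h2ba, -0.13 to 0.51 for Hist3h2a, -0.37 to 1.69 for Hist1h2ac, -0.60 to 0.69 for Hist1h4n, -0.64 to 0.78 for Hist1h3i and -0.62 to 0.65 for Hist1h2bk. The cause was not tested. Depth limits most members, since 45 of 53 had fewer than 100 reads in all libraries together. Every 3-library fit leaves a group with a lone library, which was assumed to vary like the other group.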
